A study of Mus musculus with 19 samples.

Results

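Synaptic vesicle and exocytosis genes encode the proteins that fill, dock, prime, fuse and recover the vesicles of nerve terminals. The 46 genes described here were listed by name, and a gene was kept when it had 10 or more counts in at least 4 of the 19 mice. All 46 met that rule, and all 46 were among the 18521 of 54232 genes tested. They fall into 10 synaptotagmins, 12 vesicle proteins, 12 proteins of the fusion machinery, 8 active zone proteins and 4 endocytic proteins.

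The RNA came from the striatum of C57/BL/6 mice at 6 months of age, with 7 WT and 4 mice of each KI genotype, named KI-FL, KI-571 and KI-96. The KI mice all descend from the HD140Q knock-in line, in which mouse Htt carries an expanded polyglutamine (polyQ) repeat, and those studied were heterozygous, so that each also has a normal Htt allele. KI-FL mice express the full-length mutant huntingtin. In KI-571 and KI-96 mice CRISPR-Cas9 editing lets the same allele encode only an N-terminal fragment, which is the shorter one in KI-96 mice. The KI-571 line goes back to 1 founder. The comparisons ask whether gene expression in the striatum differs between KI and WT mice, and between alleles that encode mutant proteins of different length. The study reported that the stable mutant fragment found in the brain was alike in size among these KI mice.

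As background, an action potential opens calcium channels at the active zone, and calcium binding to a synaptotagmin triggers the SNARE proteins syntaxin, SNAP-25 and synaptobrevin to fuse the vesicle with the plasma membrane. Complexins clamp and assist that step, Munc13 and RIM proteins prime vesicles, NSF and its SNAP adaptors take the SNARE complex apart, and dynamin, synaptojanin, endophilin and amphiphysin recover the membrane. In the striatum many of the vesicle proteins sit in terminals that arrive from the cortex, the thalamus and the midbrain, whose RNA is made elsewhere, whereas the RNA measured in the dissected tissue is mainly that of cells with their bodies in it. Most of the neurons among these cells are striatal projection neurons, the GABAergic neurons that are most vulnerable in Huntington's disease. Fewer cells of a type and less RNA per cell cannot be told apart in RNA from whole tissue.

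The promoters of 2 members are shown because they hold, before a RefSeq start site, short motifs known from neuronal genes. The cAMP response element (CRE, TGACGTCA) is bound by CREB, and the left part of the RE1 element (TTCAGCACC) belongs to the site of the repressor REST. Promoters of RefSeq genes were searched on both strands, each from 250 bases before to 50 bases after the start site, and 48 promoters of 36 of the 46 members were present in the table. The windows below are from GRCm38.p6, read 5′ to 3′ on the strand of the gene, with the motif in capitals. Syn1, which encodes synapsin-1, is shown because its promoter holds both motifs, and Sh3gl2 because it is among the 3 members with the smallest p in KI-571 mice. For Sh3gl2 the RefSeq start site used lies inside the gene as annotated by GENCODE, which begins at chr4:85205126, so its window is not upstream of that start.
Syn1, RE1 left part, chrX:20921112-20921168, minus strand: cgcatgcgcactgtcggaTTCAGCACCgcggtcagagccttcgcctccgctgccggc
Syn1, CRE, chrX:20921040-20921107, minus strand: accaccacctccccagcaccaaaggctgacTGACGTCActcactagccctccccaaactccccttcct
Sh3gl2, CRE, chr4:85205389-85205455, plus strand: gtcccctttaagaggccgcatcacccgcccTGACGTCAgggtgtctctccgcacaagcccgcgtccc

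The CRE letters were in 3 of the 48 promoters of members (6.25%, in Napa, Sh3gl2 and Syn1) and in 1.79% of all 32851 promoters. The RE1 left part was in 2 promoters (4.17%, in Syn1 and Unc13a) against 0.371% of all. The right part of that element (GGACAGCG) was in 3 promoters of Syt6 and Unc13a (6.25%) against 1.26%, and a TATA box (TATAAA) in 2 promoters of Sv2b (4.17%) against 13.6%. A match of letters is a description of the sequence only.

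Depth ran from 12669809 to 26388542 counts on genes in a mouse, and no member was at 0 in any mouse. The lowest count was 12, for Cplx3 in KI-FL replicate 4, and the highest was 65018, for Cplx2 in KI-96 replicate 3. Levels are given as CPM, the counts of a gene scaled to a common library size. Htt itself was at 168 to 195 CPM in WT mice, 137 to 179 in KI-FL, 104 to 141 in KI-571 and 143 to 240 CPM in KI-96 mice. All KI-571 mice were under all WT mice for Htt, without passing the test (adjusted p = 0.0959). The summed level of 10 markers of striatal projection neurons was 5373 to 9134 CPM in all 19 mice, and none of the 10 was at 0 in any mouse. Several libraries stood apart. WT replicate 3 had 1115 CPM over 9 markers of cortical excitatory neurons and KI-571 replicate 2 had 481 CPM, while the other 17 mice had 69.8 to 172 CPM. KI-96 replicate 3 had 24.2% of its reads on no gene, against 11.1% to 16% in the others, and KI-FL replicate 4 had 3186 tested genes at 0, against 10 to 222. Markers of thalamic neurons summed to 344 CPM in KI-96 replicate 4 and 30.8 to 161 CPM elsewhere. Those of 5 interneuron genes were lowest in KI-571 replicate 1, at 242 CPM, and KI-FL replicate 4, at 283, and reached 612 CPM in KI-96 replicate 4. Markers of the choroid plexus summed to 3009 to 5302 CPM in KI-571 replicates 2 and 4 and KI-FL replicate 1, and to 35.6 to 405 CPM elsewhere. Xist, the RNA of the inactive X chromosome in female cells, was at 886 to 1615 CPM in the 4 KI-96 mice and in 1 mouse each of WT (replicate 1) and KI-FL (replicate 2). The 13 others had no more than 5.05 CPM, so that sex and the KI-96 genotype are largely confounded.

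The WT mice give the order of the members by level. On the scale of CPM per kilobase of merged exons, the complexin genes Cplx2 and Cplx1 stood first, at 334 ± 47.6 and 263 ± 27.9 (SD, n = 7). They were followed by Vamp2 (synaptobrevin) at 186 ± 27.9, Snap25 at 176 ± 40.8, Syt11 at 172 ± 9.24, Rab3a at 160 ± 19.2, Dnm1 at 136 ± 24.5, Sv2a at 104 ± 9.72 and Syt1 at 97 ± 15 CPM per kilobase. The lowest members were Syt9 at 3.63 ± 0.477, Cplx3 at 2.62 ± 1.28, Syt17 at 1.65 ± 0.327, Syn3 at 1.34 ± 0.0846 and Unc13b at 1.11 ± 0.361. Of the 45 pairs of neighbours in this order, only Pclo with Syt12 and Stxbp5 with Syt9 had ranges over the 7 mice that did not overlap. The rank of most members is therefore not resolved from the rank of the next. Members of 1 family differed widely: among synaptotagmins Syt11 was first and Syt17 last, and Unc13c (34.3) and Unc13a (32.5) were far above Unc13b on the same scale.

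**Figure D1:**
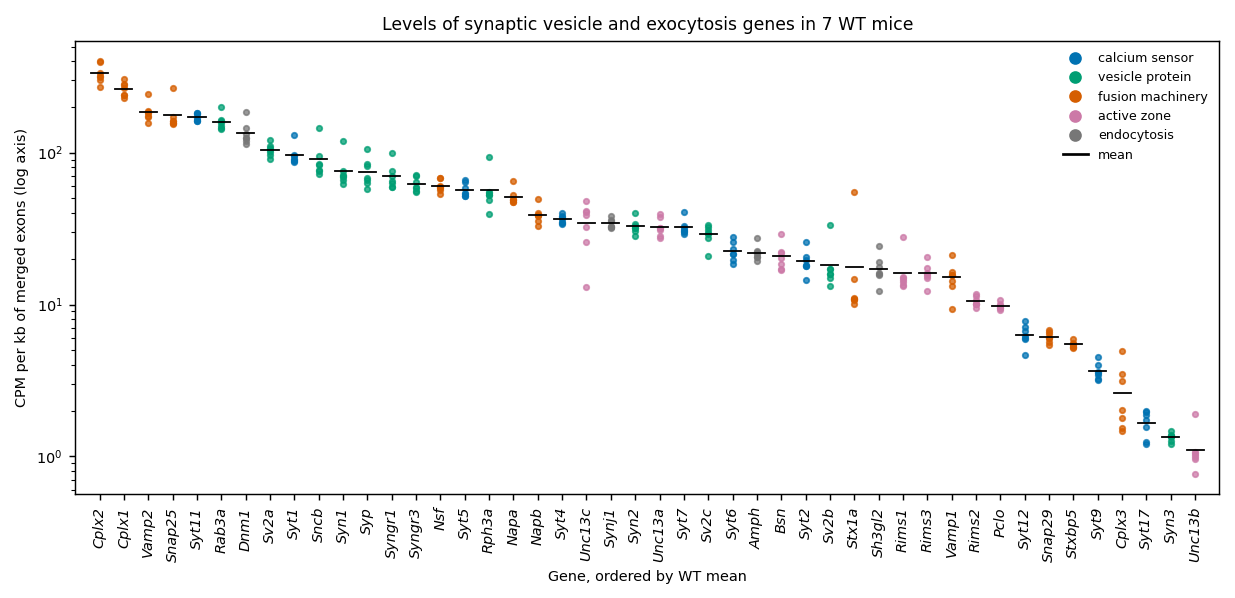
Level of each of the 46 genes in the 7 WT mice, in CPM per kilobase of merged exons on a log axis, ordered by the mean (black line), with 1 point per mouse coloured by role. The levels run from 334 for Cplx2 to 1.11 for Unc13b, and 1 point of Stx1a, at 54.7, lies far above the other 6. In the figures the role named calcium sensor holds all synaptotagmins, also Syt11 and Syt17, which do not bind calcium.

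No member passed the test at an adjusted p of 0.05 in any comparison (edgeR's quasi-likelihood test, Benjamini-Hochberg adjustment over 18521 genes). Against WT, the count was 0 of 46 for KI-FL, where 0.194% of all genes passed, 0 for KI-571 (0.0324% of all genes), 0 for KI-96 (0.027%), and 0 for the mean of the 3 KI genotypes (0.054%). The test for any difference among the 4 genotypes also passed 0 members, beside 0.14% of all genes. DESeq2 passed 1, 0, 0, 1 and 2 members in these 5 comparisons, and these were Cplx3 and, for any difference only, Syt9. Over all genes DESeq2 passed 2.75%, 0.688%, 0.151%, 1.82% and 2.33% in the same order. With the shares that passed in edgeR, a count of 0 among 46 is near the background.

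At an unadjusted p under 0.05 the counts were as follows. For KI-FL, 4 of 46 (8.7%, Snap29, Syn2, Syp and Syt5) were higher, beside 7.89% of all genes, and 2 (4.35%, Cplx3 and Syt17) lower, beside 8.84%. For KI-571, 0 were higher, beside 3.89% of all genes, and 4 (8.7%, Rims3, Sh3gl2, Syt17 and Syt2) were lower, beside 3.83%. For KI-96, 1 (2.17%, Syt9) was higher, beside 4.36% of all genes, and 1 (2.17%, Cplx3) was lower, beside 3.09%. For the mean of the KI genotypes 2 (4.35%) were higher, beside 6.03%, and 4 (8.7%) lower, beside 6.84%. For any difference, 6 members (13%) stood beside 11.7% of all genes. Without WT replicate 3, which was the highest WT mouse for 30 of the 46 members, 10 members were higher for KI-96, beside 4.35% of all genes in that fit, and 1 lower, beside 3.12%. For KI-FL 6 were then higher (7.52% of all genes) and 3 lower (9.11%), and for KI-571 1 was higher (4.36%) and 3 lower (4.26%), with 0 passing after adjustment. Without KI-96 replicate 4, 8 members were higher for KI-96, beside 7.28% of all genes, and 3 lower, beside 5.91%. With Xist as a covariate 1 was higher (0.686%) and 0 lower (0.486%), in a fit that can hardly separate sex from the KI-96 genotype.

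The 46 members had a median log2 fold change near 0 in KI-FL mice, with 23 on each side, beside -0.03 over all tested genes. In KI-571 mice it was -0.11, with 15 above 0 and 31 below, beside -0.01 over all genes. In KI-96 mice it was 0.06, with 29 above and 17 below, beside -0.01. Nearly all differences were small: 44 of 46 members for KI-FL, 46 for KI-571 and 43 for KI-96 were within 0.5 of 0 on the log2 scale. Without WT replicate 3 the medians in the same order were 0.05, -0.04 and 0.12.

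**Figure D2:**
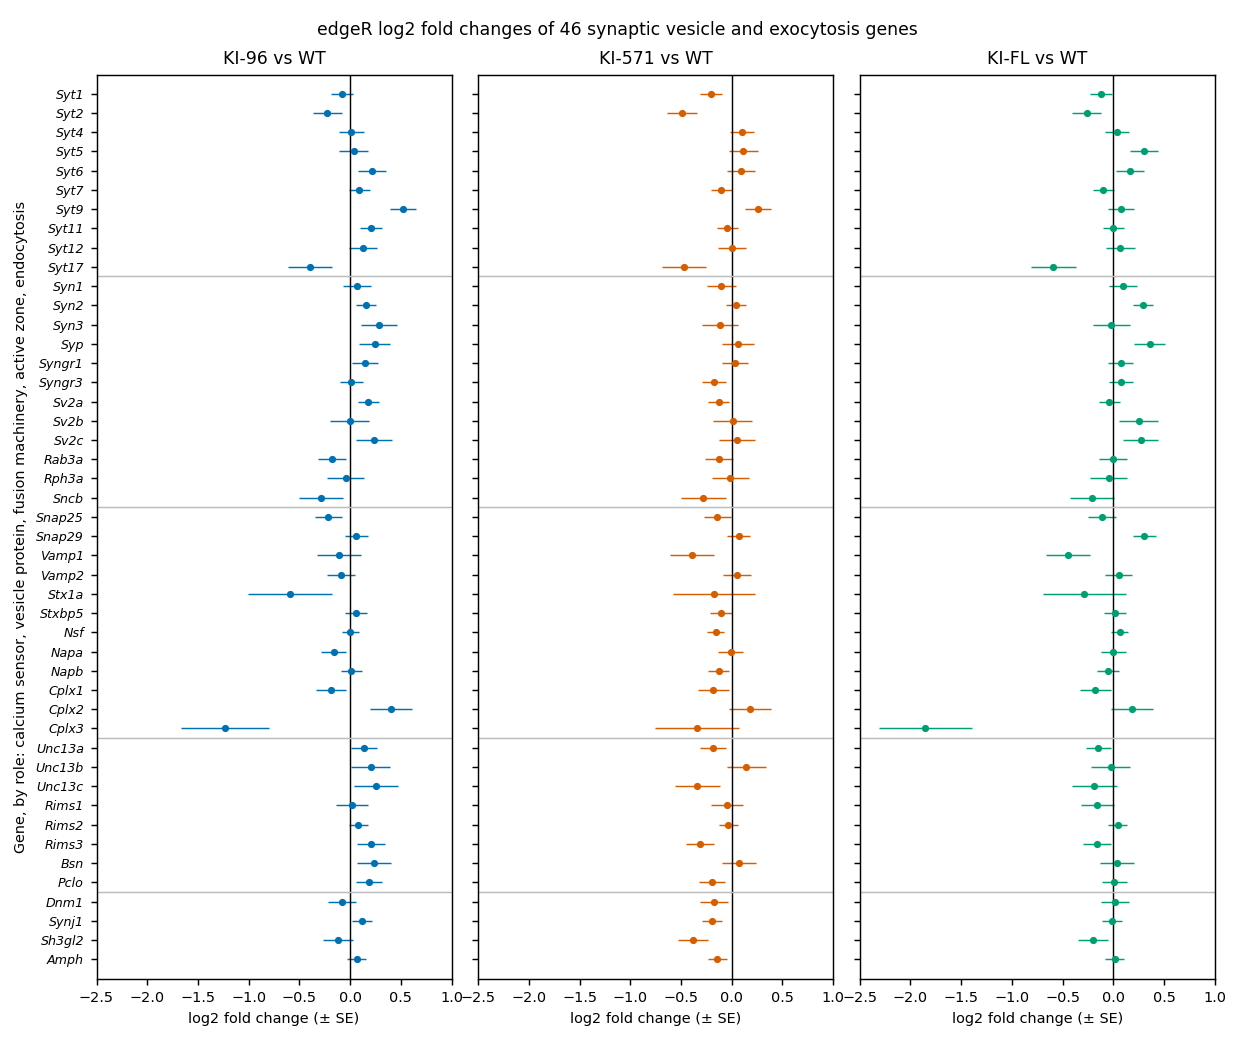
The log2 fold change (± SE, edgeR) of each of the 46 genes in each KI genotype against WT mice, with the genes in rows grouped by role. Most points lie within 0.5 of 0, and Cplx3 stands alone at -1.23 in KI-96 and -1.85 in KI-FL mice.

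Among the synaptotagmins, Syt1, the fast calcium sensor of release, differed little. Its level was 721 to 811 CPM in 6 WT mice and 1083 in WT replicate 3, 699 to 807 in KI-FL, 669 to 746 in KI-571 and 697 to 843 in KI-96 mice. The groups overlapped, and the mean of the KI genotypes was at a log2 fold change of -0.14 ± 0.08 (SE, adjusted p = 0.492). Without WT replicate 3 it was -0.06.

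Syt9 (chr7:107370728-107548656, plus strand, GRCm38), another fast sensor, which is known from striatal and limbic neurons, was low, at 12.8, 12.6, 14.2, 18, 15.9, 14.1 and 13.6 CPM in WT replicates 1 to 7. KI-96 mice had 17.8, 17.5, 22.9 and 24.4 CPM, KI-571 mice 19.9, 15.8, 16.9 and 16.6 CPM and KI-FL mice 14.1, 14.3, 18.4 and 13.9 CPM. KI-96 replicates 3 and 4 were above all WT and KI-FL mice, while KI-96 replicates 1 and 2 lay just under the highest WT mouse. The summed level of 7 markers of thalamic neurons was 344 CPM in KI-96 replicate 4 and 151 in replicate 3, against 54.4 and 61.2 in replicates 1 and 2, and in KI-FL mice it was highest, at 161 CPM, in replicate 3, which was also highest for Syt9. In KI-571 mice the sum was lowest, at 52 CPM, in replicate 1, which was highest for Syt9. Among WT mice the sum was highest, at 128 CPM, in replicate 7, and was 103 CPM in replicate 4, which had the most Syt9. The part of thalamic tissue in the Syt9 values was not tested. Without KI-96 replicate 4 the log2 fold change from WT was 0.43. Against WT, KI-96 mice were at a log2 fold change of 0.52 ± 0.13 (adjusted p = 0.384), with the smallest p of any member in that genotype. Against KI-FL mice it was 0.44 ± 0.15 (adjusted p = 0.433). DESeq2 gave an adjusted p of 0.0746 against WT. With Xist as a covariate, the difference from WT was 0.66 (adjusted p = 1).

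Syt2 (chr1:134646677-134762593, plus strand), the sensor of fast inhibitory terminals, was at 111 to 198 CPM in WT mice with a median of 140, and at 126, 149, 94.7 and 135 CPM in KI-96 mice. It was at 106, 94.1, 132 and 87.5 CPM in KI-571 mice and at 138, 115, 134 and 104 CPM in KI-FL mice. In KI-571 mice 3 of 4 were under the lowest WT mouse, and replicate 3 was within the WT range. That mouse had the highest summed interneuron markers of its genotype, 493 CPM against 242 to 427. Among WT mice replicate 4, with the most Syt2, also had the highest sum, 588 CPM, but replicate 7, with the least Syt2, had 549. In KI-96 mice the highest sum was in replicate 4 (612 CPM) and the most Syt2 in replicate 2. In KI-FL mice the highest sum was in replicate 2 (442 CPM) and the most Syt2 in replicate 1. The part of interneurons was not tested. In KI-571 mice the log2 fold change was -0.49 ± 0.15 (adjusted p = 0.263), and for the mean of the KI genotypes -0.33 ± 0.11 (adjusted p = 0.2).

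Syt17, an atypical synaptotagmin that does not bind calcium, was at 6.48, 6.25, 10.2, 8.98, 9.7, 10.4 and 8.1 CPM in WT mice. The KI mice had 7.58, 6.28, 5.37 and 6.95 (KI-96), 4.71, 7.62, 6.63 and 5.85 (KI-571) and 6.17, 5.38, 7.99 and 3.2 CPM (KI-FL). All 12 KI mice were under 8 CPM, and 2 of 7 WT mice were too. The mean of the KI genotypes was at -0.49 ± 0.16 on the log2 scale (adjusted p = 0.202).

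The other synaptotagmins had log2 fold changes within 0.31 of 0 in each KI genotype. Syt5 was at 123 to 157 CPM in WT and 160 to 182 in KI-FL mice, ranges that did not overlap, with a log2 difference of 0.31 ± 0.14 (adjusted p = 0.269). Syt11, an abundant member without calcium binding, had a WT level of 895 ± 48.1 CPM (SD, n = 7). Syt4 was at 142 ± 8.1, Syt6 at 132 ± 19.5, Syt7, the slow sensor of asynchronous release, at 241 ± 28.7 and Syt12 at 35.1 ± 5.5 CPM. Of the merged exon bases of Syt12, 17.2% are shared with A930001C03Rik, and of those of Syt4, 14.5% with Gm26658, so that their counts depend on how reads in shared exons were assigned.

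Among the vesicle proteins, Syn2 (chr6:115134902-115282006, plus strand), a synapsin, which tethers vesicles to one another, had the smallest p in KI-FL mice. It was at 223, 200, 281, 232, 226, 216 and 237 CPM in WT mice and at 260, 275, 313 and 283 CPM in KI-FL mice. All KI-FL mice were above 6 of the 7 WT mice, and WT replicate 3 was inside the KI-FL range. The KI-96 mice had 270, 273, 224 and 260 CPM and the KI-571 mice 222, 262, 263 and 206 CPM. On the log2 scale the difference from WT was 0.29 ± 0.10 for KI-FL (adjusted p = 0.153), 0.15 ± 0.10 for KI-96 and 0.04 ± 0.10 for KI-571. Without WT replicate 3 it was 0.34 in KI-FL mice (adjusted p = 0.0866).

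Syn1 was at 206 to 250 CPM in 6 WT mice and 392 in WT replicate 3, and at 196 to 294 CPM in the 12 KI mice. The mean of the KI genotypes was at 0.02 ± 0.11 on the log2 scale (adjusted p = 0.956), and without WT replicate 3 at 0.16 (adjusted p = 0.401). Syp (synaptophysin, a major membrane protein of the vesicle) was at 299 to 548 CPM in WT and 432, 518, 622 and 436 CPM in KI-FL mice (0.36 ± 0.15, adjusted p = 0.244). The groups overlapped, and 16.8% of the merged exon bases of Syp are shared with Gm14703. Syn3 was low, at 16.5 ± 1.04 CPM in WT mice (SD, n = 7), and shares 14.1% of its exon bases with Timp3, which lies within it.

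Sv2b, a vesicle glycoprotein, was at 111 to 143 CPM in 6 WT mice and 282 in WT replicate 3, and at 175, 180, 189 and 183 CPM in KI-FL mice. All KI-FL mice were above those 6 WT mice and under replicate 3. The log2 fold change in KI-FL mice was 0.25 ± 0.19 (adjusted p = 0.516), and 0.46 (adjusted p = 0.0877) without WT replicate 3. For the other vesicle proteins, WT means were 339 ± 68.1 CPM for Syngr1 and 128 ± 13.9 for Syngr3, the synaptogyrins, and 484 ± 45.1 and 282 ± 39.5 for the glycoproteins Sv2a and Sv2c (SD, n = 7). The small GTPase Rab3a was at 357 ± 42.7 CPM, its effector Rph3a at 263 ± 80.5 and Sncb (beta-synuclein) at 194 ± 54.9. The log2 fold changes of these 7 genes lay within 0.29 of 0 in all 3 KI genotypes. The 12 vesicle proteins had a median log2 fold change of 0.07 for KI-FL, with 7 above 0, 0.11 for KI-96, with 8 above 0, and -0.06 for KI-571, with 5 above 0. Leaving out WT replicate 3 gave 0.14 (9 above 0), 0.20 (10) and 0.01 (6).

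In the fusion machinery, Cplx3 had the largest difference of any member. Cplx3 (chr9:57599992-57606281, minus strand) is a complexin known from retinal ribbon synapses and from deep cortical neurons, and it was among the lowest members, so that its fold changes rest on few reads. WT replicates 1 to 7 were at 5.96, 5.29, 14.5, 9.29, 4.34, 4.53 and 10.3 CPM. The KI-FL mice had 2.59, 2.3, 2.83 and 0.783 CPM, all under the lowest WT mouse.

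The KI-96 mice had 2.24, 2.55, 2.17 and 6.04 CPM for Cplx3, and the KI-571 mice 2.79, 12, 5.09 and 4.51 CPM. KI-96 replicate 4 was inside the WT range, as were 3 of the 4 KI-571 mice. Its log2 fold change was -1.85 ± 0.46 for KI-FL (adjusted p = 0.0752), -1.23 ± 0.43 for KI-96 (adjusted p = 0.604) and -0.34 ± 0.41 for KI-571 (adjusted p = 0.956). For the mean of the KI genotypes it was -1.14 ± 0.31 (adjusted p = 0.121).

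The call of Cplx3 in KI-FL mice depended on the settings. It did not pass in edgeR as planned, and it passed with DESeq2 (adjusted p = 0.00269), without the filter on low counts (0.0298), with only WT and KI-FL mice in the model (0.0405) and with the cortical marker score as a covariate (log2 fold change -1.62, adjusted p = 0.0447). The cortical score was lowest of all mice in KI-FL replicate 4, at 0.375, where 4 of the 9 markers were at 0. Their summed level in that mouse was 96.7 CPM, within the range of most others. The part of these missing markers in the fit with the score was not tested. Without KI-FL replicate 4, the mouse with many genes at 0, the log2 fold change was -1.58 (adjusted p = 0.186). Without WT replicate 3 it was -1.64 (adjusted p = 0.0834). The 2 mice with the highest Cplx3, WT replicate 3 and KI-571 replicate 2, were the 2 with the highest cortical markers. The 5 WT mice with 70 to 99.3 CPM of these markers had 4.34 to 10.3 CPM of Cplx3. Between KI-571 and KI-FL mice the log2 fold change was 1.51 ± 0.49 (adjusted p = 0.376), and 0.95 without KI-571 replicate 2.

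**Figure D3:**
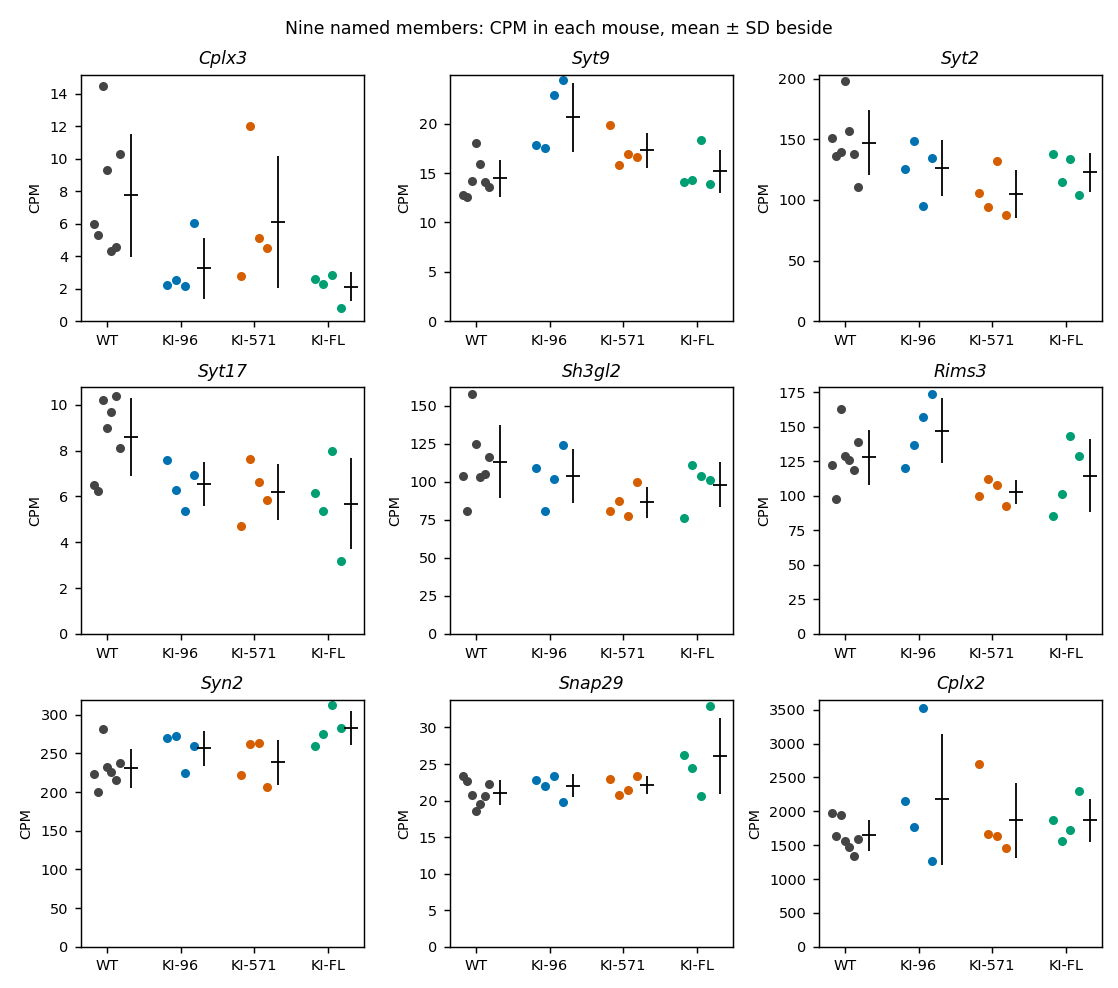
CPM of 9 members in each mouse, with the mean and SD of each genotype drawn in black beside the points. The KI-FL mice lie between 0.783 and 2.83 CPM for Cplx3, under all WT mice, while the genotypes overlap for Sh3gl2, Snap29 and Cplx2.

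Stx1a (chr5:135023482-135051100, plus strand) encodes syntaxin-1A, a plasma membrane SNARE. WT replicate 3 had 146 CPM of it and the other WT mice 26.9 to 39.3, while KI-571 replicate 2 had 75 CPM and its fellows 28 to 31.8. The KI-96 mice had 33.8, 32.6, 18.2 and 39.3 CPM and the KI-FL mice 32.1, 36.9, 50.8 and 33 CPM. Its highest values were thus in the 2 mice with the highest cortical markers. The mean of the KI genotypes was at -0.35 ± 0.30 on the log2 scale (adjusted p = 0.668), at 0.02 with the cortical marker score as a covariate, and at 0.27 (adjusted p = 0.57) without WT replicate 3, so that 1 mouse set its sign.

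Snap25, the other plasma membrane SNARE, was at 1053 to 1161 CPM in 6 WT mice and 1819 in WT replicate 3, and at 850 to 1158 CPM in the KI mice. Its log2 fold change for the mean of the KI genotypes was -0.16 ± 0.10 (adjusted p = 0.537), and -0.03 without WT replicate 3. Vamp2, the vesicle SNARE, was at 594 to 712 CPM in 6 WT mice, 931 in WT replicate 3 and 646 to 830 in the KI mice other than KI-96 replicate 3, which had 445. Its log2 fold change was 0.01 ± 0.10 (adjusted p = 0.988).

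Snap29 (chr16:17405986-17430827, plus strand), a broadly expressed relative of Snap25, was at 23.4, 22.7, 20.7, 18.6, 19.5, 20.6 and 22.2 CPM in WT mice and at 26.2, 24.5, 20.6 and 33 CPM in KI-FL mice. KI-FL replicate 4 was the highest, and replicate 3 lay in the WT range. This gave a log2 fold change of 0.31 ± 0.11 (adjusted p = 0.177), and of 0.17 without KI-FL replicate 4.

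Cplx2, the most abundant complexin here, was at 1335 to 1969 CPM in WT mice and 2153, 1766, 3525 and 1271 CPM in KI-96 mice, with 0.41 ± 0.21 on the log2 scale (adjusted p = 0.688). The KI-96 mice included both the highest and the lowest of the 19 values. Without KI-96 replicate 3 the log2 fold change was 0.07. The KI-571 mice had 2692, 1671, 1638 and 1463 CPM and the KI-FL mice 1878, 1557, 1727 and 2304 CPM.

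Vamp1, the second synaptobrevin, was lower in each KI genotype without passing, at -0.45 ± 0.22 on the log2 scale for KI-FL (adjusted p = 0.304), -0.40 ± 0.22 for KI-571 (adjusted p = 0.729) and -0.11 ± 0.21 for KI-96 (adjusted p = 0.943), from 154 ± 36.9 CPM in WT mice. Interneuron markers summed to 390 to 588 CPM in WT, 283 to 442 in KI-FL, 242 to 493 in KI-571 and 304 to 612 CPM in KI-96 mice. The mice with the most Vamp1 in WT (217 CPM, replicate 4), KI-96 (220, replicate 4) and KI-571 (159, replicate 3) had the highest interneuron sums of their genotypes, and so had KI-FL replicate 2 (133). The part of interneurons in the Vamp1 values was not tested. The disassembly factors were close to WT. Nsf had the smallest spread within genotypes of all members, a residual SD of 0.1 on the log2 scale, at 507 ± 45.3 CPM in WT mice. Napa was at 194 ± 23.6 and Napb at 276 ± 36.5 CPM. Cplx1 was at 575 ± 61.1 CPM and Stxbp5 (tomosyn, which competes for SNAREs) at 90.2 ± 4.24 CPM (SD, n = 7), and both lay within 0.2 of 0 on the log2 scale in each KI genotype.

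**Figure D4:**
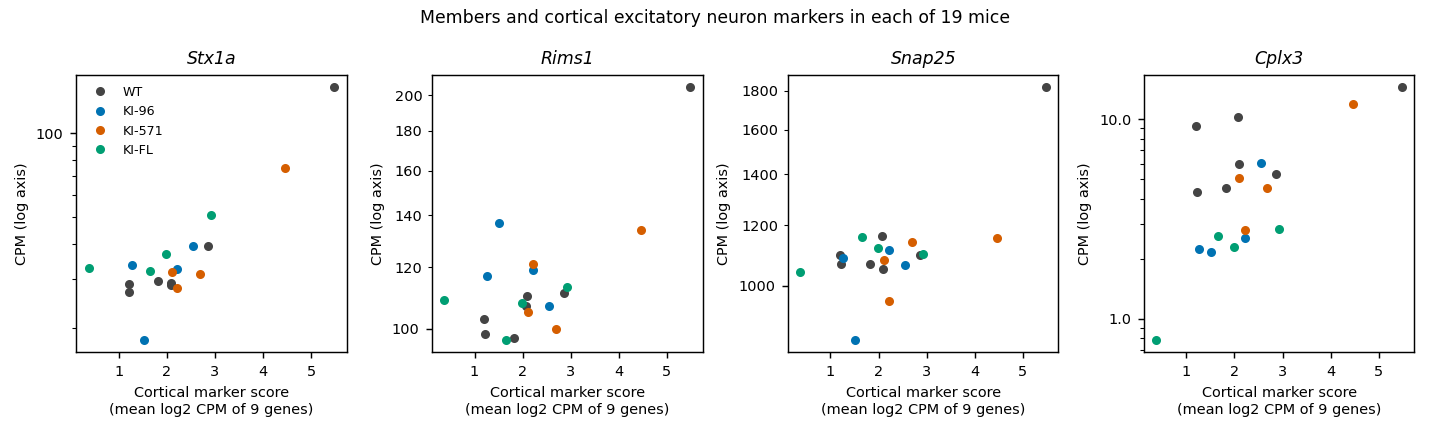
CPM (log axis) of Stx1a, Rims1, Snap25 and Cplx3 in each of the 19 mice against the cortical marker score, the mean log2 CPM of 9 genes, coloured by genotype. WT replicate 3, at a score of 5.48, is highest in all 4 panels, and KI-571 replicate 2, at 4.45, is the next highest for Stx1a and Cplx3.

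All 8 active zone genes were above 0 in KI-96 mice, with a median log2 fold change of 0.19 and a range of 0.01 to 0.26, and none passed. Without KI-96 replicate 3, 5 of the 8 were above 0, with a median of 0.05, and with Xist as a covariate 6 were, with a median of 0.06. The fit with Xist can hardly separate sex from the KI-96 genotype. With WT replicates 1 to 4 alone 7 were above 0, with a median of 0.10. For KI-571, 2 of the 8 were above 0 (median -0.12), and for KI-FL 3 (median -0.09). Leaving out WT replicate 3 made these 3 (median -0.07) and 5 (median 0.01), so that 1 mouse set the direction for KI-FL. Members longer than 5.68 kilobases of merged exons, as all 8 are, had in KI-96 replicate 3 a median log2 difference of 0.26 from the other KI-96 mice, and shorter members -0.38, while long and short genes among all tested were at 0.21 and -0.14. The part of transcript length in these values was not tested.

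Rims3 (chr4:120854816-120896579, plus strand), a short RIM that lacks the amino-terminal domains of Rims1, was at 122, 98, 163, 129, 126, 119 and 139 CPM in WT mice. It was at 120, 137, 157 and 174 CPM in KI-96 mice, 99.6, 112, 108 and 92.4 CPM in KI-571 mice and 85.2, 101, 143 and 129 CPM in KI-FL mice. All KI-96 mice were above all KI-571 mice, and both overlapped WT. For KI-571 the log2 fold change from WT was -0.31 ± 0.14 (adjusted p = 0.585), and -0.24 without WT replicate 3.

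Rims1, the scaffold that recruits calcium channels, was at 97.3 to 111 CPM in 6 WT mice and 205 in WT replicate 3, and at 96.7 to 137 CPM in the KI mice. The mean of the KI genotypes was at -0.06 ± 0.12 (adjusted p = 0.871) and at 0.12 without WT replicate 3. Unc13a, the main Munc13 priming factor, was at 348 to 500 CPM in WT mice and 294 to 552 CPM in KI mice (-0.07 ± 0.09, adjusted p = 0.82). Bsn, the giant scaffold Bassoon, was at 271 to 466 CPM in WT and 230 to 520 CPM in KI mice (0.11 ± 0.13, adjusted p = 0.755).

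Unc13c, another Munc13, was lowest in WT replicate 3, where it was at 115 CPM, against 227 to 422 in the other WT mice, and KI-571 replicate 2 had 178 CPM, against 218 to 292 in the other KI-571 mice. Unc13b was at 25.2 ± 8.22 CPM, Rims2 at 109 ± 8.61 and Pclo (Piccolo) at 220 ± 11.1 CPM in WT mice (SD, n = 7).

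The 4 endocytic genes were all below 0 in KI-571 mice, with a median log2 fold change of -0.18 and a range of -0.39 to -0.14. All 4 were also below 0 without WT replicate 3, with a median of -0.13. The lowest was Sh3gl2, which encodes endophilin A1, a membrane-bending partner of synaptojanin whose CRE is shown above. Sh3gl2 was at 104, 80.7, 158, 125, 103, 105 and 116 CPM in WT mice and 81.1, 87.7, 77.2 and 100 CPM in KI-571 mice. All KI-571 mice were under 6 of the 7 WT mice, and WT replicate 2 lay inside their range. Its log2 fold change was -0.39 ± 0.15 (adjusted p = 0.469), and -0.29 without WT replicate 3. The KI-96 mice had 109, 80.9, 102 and 124 CPM and the KI-FL mice 76.5, 111, 104 and 101 CPM.

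Dnm1, the neuronal dynamin that cuts the vesicle neck, was at 601 to 763 CPM in 6 WT mice, 977 in WT replicate 3 and 510 to 785 CPM in KI mice, with -0.08 ± 0.10 for the mean of the KI genotypes (adjusted p = 0.799). Synj1 (synaptojanin, a lipid phosphatase of uncoating) was at 276 ± 19.9 CPM and Amph (amphiphysin) at 99.7 ± 12 CPM in WT mice (SD, n = 7).

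Between KI genotypes, 0 members passed in each of the 3 pairs, beside 0% of all genes for KI-96 against KI-FL, 0.0864% for KI-571 against KI-FL and 0.0054% for KI-96 against KI-571. DESeq2 also passed 0 in each pair. At an unadjusted p under 0.05, 6 members (13%) were higher in KI-96 than in KI-571 mice, beside 3.14% of all genes, and 0 lower, beside 2.38%. These were Rims3, Synj1, Pclo, Unc13a, Unc13c and Sv2a. Without KI-571 replicate 4, the KI-571 mouse lowest for 23 members, 2 were higher, beside 2.22% of all genes, and without KI-571 replicate 1 the number was 11, beside 5.46%. With Xist, high in all KI-96 mice and low in all KI-571 mice, as a covariate, 1 was higher, beside 0.756%. In KI-96 against KI-FL mice 2 (4.35%, Rims3 and Syt9) were higher, beside 5.13%, and 0 lower, beside 3.77%. In KI-571 against KI-FL mice 1 (2.17%, Cplx3) was higher, beside 4.67%, and 2 (4.35%, Nsf and Syn2) lower, beside 4.23%.

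Rims3 had the smallest p between KI-96 and KI-571 mice, with a log2 difference of 0.52 ± 0.15 (adjusted p = 0.519), and 0.36 ± 0.15 between KI-96 and KI-FL mice (adjusted p = 0.529). Synj1 was at 298, 281, 373 and 247 CPM in KI-96 and 265, 226, 243 and 232 CPM in KI-571 mice. That is a log2 difference of 0.31 ± 0.11 (adjusted p = 0.682), and 0.19 without KI-96 replicate 3, the highest. Nsf was at 463, 450, 481 and 420 CPM in KI-571 and 514, 530, 553 and 523 CPM in KI-FL mice, with no overlap, a log2 difference of -0.22 ± 0.10 (adjusted p = 0.506). The median over the 46 members was 0.14 for KI-96 against KI-571 (all genes 0.00), 0.05 for KI-96 against KI-FL (0.02) and -0.08 for KI-571 against KI-FL (0.02).

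**Figure D5:**
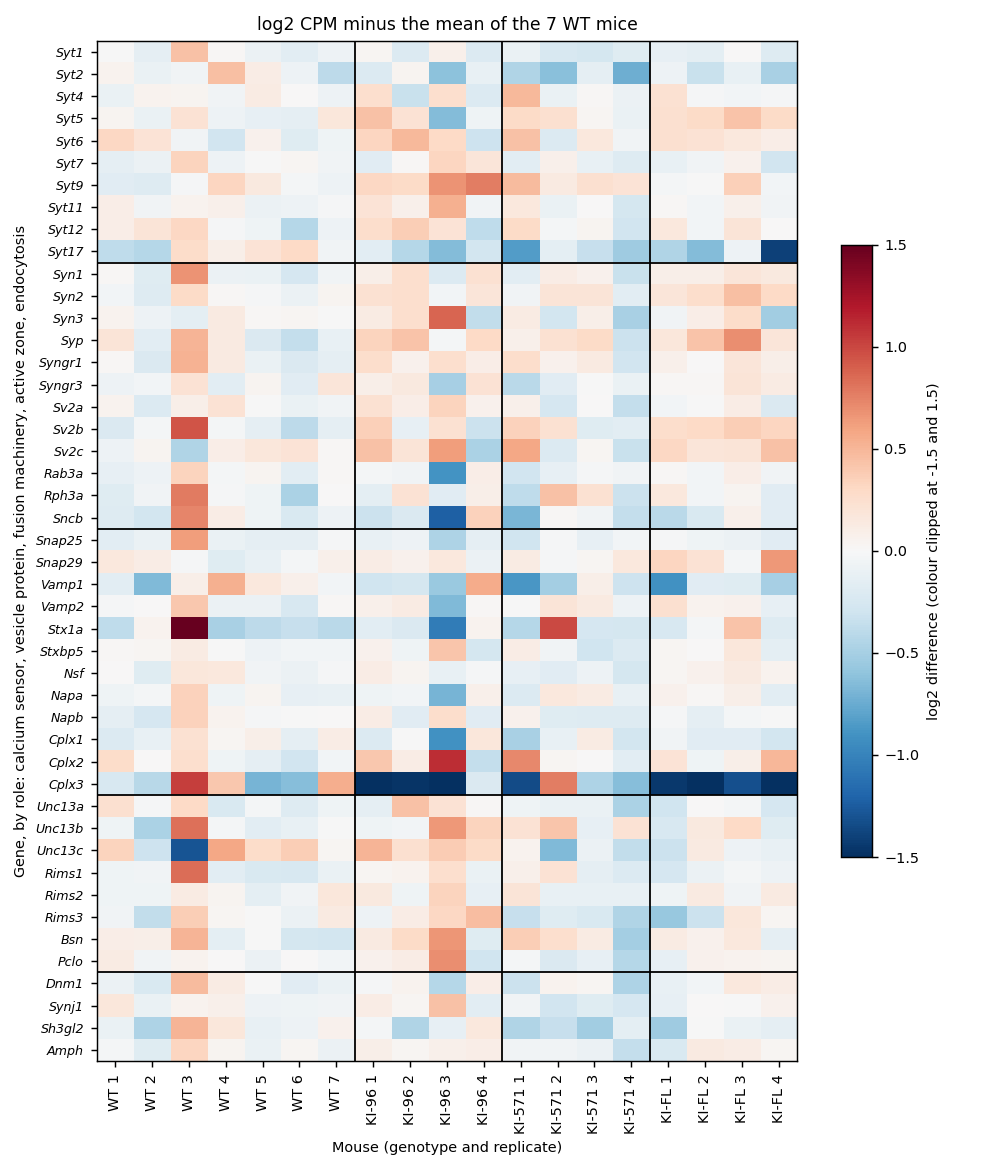
Difference in log2 CPM from the mean of the 7 WT mice for each of the 46 genes (rows, by role) in each of the 19 mice (columns, by genotype), with colours clipped at -1.5 and 1.5. The column of WT replicate 3 is mostly red, and KI-96 replicate 3 holds both strong reds and strong blues. Cplx3 is strongly blue in all KI-FL mice, 3 KI-96 mice and KI-571 replicate 1. It is paler blue in KI-571 replicates 3 and 4 and in KI-96 replicate 4.

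Single mice differed from the rest of their genotype across many members. WT replicate 3 was above the mean of the other WT mice for 39 of 46 members, by a median of 0.35 on the log2 scale, while over all tested genes the median was 0.01. It was the highest WT mouse for 65.2% of members and 21.9% of all genes. Stx1a was its largest excess, at 2.27, and Unc13c its largest deficit, at -1.51. The part of the cortical markers in these values was not tested.

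KI-FL replicate 3 was the highest KI-FL mouse for 27 members (58.7%, beside 23.3% of all genes). KI-571 replicate 4 was the lowest KI-571 mouse for 23 (50%, beside 27.5%), and KI-FL replicate 1 the lowest KI-FL mouse for 20 (43.5%, beside 18.9%). Choroid plexus markers summed to 5302 CPM in KI-571 replicate 4 and 3009 in KI-FL replicate 1. KI-571 replicate 2, with 5074 CPM of them, was lowest for 6 members (13%, beside 22%). The part of choroid plexus tissue was not tested. KI-96 replicate 3 deviated in both directions, with 6 members over 0.5 above and 11 over 0.5 below the other KI-96 mice. Cplx2 was highest there, at 1.06, and Sncb lowest, at -1.16. Within genotypes, the members had a median residual SD of 0.24 on the log2 scale, beside 0.30 over all tested genes, with Cplx3 (0.74), Stx1a (0.68) and Unc13c (0.44) at the top. The range of the 4 genotype means had a median of 0.25 over members and 0.35 over all genes. Members and all tested genes were not matched by expression level for either value.

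A wider list of 83 other genes of the vesicle cycle was examined, of which 80 were tested. None of the 80 passed in edgeR in any comparison. At an unadjusted p under 0.05, 10 were higher for KI-FL, beside 7.89% of all genes, and 9 lower, beside 8.84%. For KI-571 1 was higher, beside 3.89%, and 9 lower, beside 3.83%, and for KI-96 7 were higher, beside 4.36%, and 2 lower, beside 3.09%. Cadps, which encodes the dense-core vesicle priming protein CAPS-1, had the smallest p in KI-571 mice. It was at 192, 160, 230, 214, 182, 181 and 173 CPM in WT mice and 128, 134, 157 and 143 CPM in KI-571 mice, with no overlap and a log2 fold change of -0.44 ± 0.10 (adjusted p = 0.0959). The KI-FL mice had 156, 158, 158 and 153 CPM of Cadps, also under all WT mice (-0.28 ± 0.10, adjusted p = 0.152).

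Svop, a vesicle protein of the transporter family, was at 103 to 157 CPM in WT and 167, 172, 183 and 179 CPM in KI-FL mice, again with no overlap (0.47 ± 0.12, adjusted p = 0.0808). In KI-96 mice it was at 0.33 ± 0.12 (adjusted p = 0.623), as was Rab3c, a relative of Rab3a, at 0.33 ± 0.12 (adjusted p = 0.623). Synj2, the second synaptojanin, was at 44.1 to 64 CPM in WT and 35.6, 36.4, 49.3 and 27.7 CPM in KI-FL mice (-0.49 ± 0.13, adjusted p = 0.0865). Sytl4 (granuphilin) was at 0.374 to 3.94 CPM in WT and 0.288 to 0.822 CPM in KI-571 mice (-1.75 ± 0.55, adjusted p = 0.298), so low that few reads set each value.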

How the data were processed

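Striatal RNA of 19 mice was sequenced. The authors deposited raw counts per gene, not normalized: adapters were trimmed with BBduk, reads were aligned to GRCm38 with STAR and counted with HTSeq (versions, annotation and strand setting not given in the sources used here). Of the table, 4 columns of no sample here and 5 HTSeq summary lines were not used. Gene names were matched for 54079 of 54232 identifiers, and exons taken from GENCODE vM21.

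All 19 libraries entered 1 model in edgeR 4.0.16 (R 4.3.3): TMM, filterByExpr (minimum count 10, total 15), a coefficient per genotype, quasi-likelihood F-test, Benjamini-Hochberg adjustment, threshold 0.05. SE is the log2 fold change divided by the square root of F. CPM used the TMM-scaled library size; log2 CPM added a prior count of 2. The biological coefficient of variation was 0.24, and 3 counts, the floor, equal 0.106 to 0.238 CPM. Such limits cover counting error only. Data were simulated with these library sizes, 1 coefficient of variation (0.24) for all genes and no outlying library. There edgeR called 98% of 4-fold and 66.7% of 2-fold changes in KI-FL against WT (18032 genes). In the real data genes differed in spread and some libraries stood apart, so these shares may not hold for the members.

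Named with full values were members passing in any comparison, those with the 3 smallest p against WT or 2 between KI genotypes, 10 core members, and 2 other vesicle genes per KI genotype. Syt5 and other members were named after their values were seen. The members and lists were chosen with earlier results of these data known. Sex, sacrifice batch and the WT sample removed in the study are not in the labels, so all 7 WT mice were kept. Alternatives were DESeq2 1.42.0, its size factors in edgeR, other filters, fewer samples, and Xist, cortical score or replicate number as covariates. DESeq2 was run with default settings, so that its own handling of outlying counts applied.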

Additional observations from a re-analysis of the deposited data

Results flagged for a closer look

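In 200 groups of 4 or 7 mice, 33 had a highest or lowest mouse far from the others by Dixon's test at the 95% level, which chance alone gives about 1 group in 20. WT replicate 3 accounted for 19 of them. Its levels, all above the other 6 WT mice, were 1083 CPM for Syt1, 303 for Syt7, 392 for Syn1, 478 for Syngr1, 282 for Sv2b, 446 for Rab3a, 437 for Rph3a and 313 for Sncb. In the fusion machinery it had 1819 CPM of Snap25, 931 of Vamp2, 146 of Stx1a and 245 of Napa. It also had 43.1 CPM of Unc13b, 205 of Rims1, 466 of Bsn, 977 of Dnm1 and 124 of Amph. The cortical marker score of this mouse was 5.48, against 1.21 to 2.86 in the other WT mice, and the mean log2 CPM of the 46 members was 7.7, against 7.25 to 7.42.

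In KI-96 mice, Vamp2 was lowest in replicate 3 at 445 CPM (others 713 to 766), Cplx3 highest in replicate 4 at 6.04 CPM (others 2.17 to 2.55), and the share of reads on no gene highest in replicate 3 at 24.2% (others 11.8% to 12.7%). In KI-571 mice, replicate 1 was highest for Syt4 at 200 CPM, Napb at 287, Cplx2 at 2692 and Rims2 at 124, replicate 2 for Stx1a at 75, and replicate 4 was lowest for Unc13a at 294 and Amph at 77.1 CPM. In KI-FL mice, replicate 1 was highest for Syt4 at 167 CPM and lowest for Pclo at 202, replicate 3 was highest for Syt9 at 18.4, and replicate 4 had 3186 tested genes at 0 (others 134 to 222).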

How the results depend on the processing

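With edgeR as planned, the number of members that passed was 0 in all 8 comparisons and in all 19 fits that left out 1 mouse. It became 1 (Cplx3) in KI-FL against WT mice with DESeq2, without the filter on low counts, with only the groups compared and with the cortical score, and 1 for the mean of the KI genotypes with DESeq2 and without the filter. For any difference it was 2 with DESeq2 (Cplx3, Syt9) and 1 without the filter. Over all genes, DESeq2 passed 28, 115, 509 and 285 genes in KI-96, KI-571, KI-FL and the mean against WT, where edgeR passed 5, 6, 36 and 10, and 38, 88, 35 and 431 for KI-96 against KI-FL, KI-571 against KI-FL, KI-96 against KI-571 and any difference, where edgeR passed 0, 16, 1 and 26. Without the filter these 8 counts were 23, 78, 85, 140, 24, 25, 35 and 226, and the median of all genes shifted to -0.18 in KI-FL mice and -0.11 for the mean. With at least 10 counts in every mouse they were 0, 3, 55, 11, 0, 12, 0 and 17, with Xist as a covariate 0, 6, 0, 0, 0, 14, 0 and 3, and with the cortical score 2, 4, 77, 20, 0, 7, 0 and 21. With only the groups compared, the 3 genotypes against WT gave 0, 55 and 336 and the pairs 2, 11 and 9. With WT replicates 1 to 4 alone the 8 counts were 0, 0, 0, 0, 0, 10, 2 and 5. With 1 mouse left out, the genes that passed ranged from 1 to 10 for KI-96, 0 to 46 for KI-571, 0 to 159 for KI-FL and 3 to 173 for the mean, all against WT. The cause was not tested.

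Among named members, signs turned only in the mean of the KI genotypes against WT. Stx1a was at 0.25 with DESeq2, 0.02 with the cortical score, 0.12 without WT replicate 3 and KI-571 replicate 2, and 0.21 also without KI-96 replicate 3 and KI-FL replicate 4. Rims1 was at 0.02, 0.09 and 0.07 in the last 3 of these, and Snap25 at 0.00 and Dnm1 at 0.01 in the last. Both fits without several mice were chosen after seeing the data, and they passed 0, 0, 51, 14, 0, 5, 0 and 6 and, in the second, 2, 5, 147, 258, 0, 4, 0 and 50 genes. Vamp2 was at -0.01 without the filter and, just under 0, at 0.00 with 10 counts in every mouse. With WT replicates 1 to 4 alone, Vamp2 was at -0.07, Syn1 at -0.10 and Bsn at -0.02. With 1 mouse left out, the ranges were -0.50 to 0.27 for Stx1a, -0.11 to 0.12 for Rims1, -0.12 to 0.01 for Dnm1, -0.03 to 0.16 for Syn1 and -0.04 to 0.08 for Vamp2. With 1 mouse left out, the medians of members ranged from 0.02 to 0.12 in KI-96, -0.13 to -0.04 in KI-571, -0.04 to 0.05 in KI-FL and -0.04 to 0.02 for the mean.

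The labels do not say that a replicate number marks a shared batch or litter. Same-numbered mice had a median correlation of deviations of 0 (-0.103 to 0.29), beside -0.005 for mice of other numbers. Of 16 mice, 7 correlated best with their own number, which does not establish a shared batch. With the replicate block, 0 members passed in any comparison, Cplx3 in KI-FL mice was at -1.99 (adjusted p = 0.398), Vamp2 at -0.08, Syn1 at -0.08 and Bsn at -0.02, and the 8 counts over all genes were 0, 1, 0, 0, 1, 8, 1 and 5. Depth limits low genes such as Cplx3, Syt17 and Sytl4. Members with small differences cannot be called unchanged with 4 mice per KI genotype.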
